A study of Mus musculus with 12 samples.

Results

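The proteasome is the large protease of the cytosol and nucleus that degrades ubiquitin-tagged proteins, and the genes described here encode its subunits, activators and some of its assembly factors. They were taken from the array annotation as every probe set that carries 1 gene symbol and whose symbol is Psma, Psmb, Psmc, Psmd or Psme followed by a number. This gave 51 probe sets for 40 genes, of 12422 probe sets and 8251 genes in all. Where a gene had over 1 probe set, as 7 genes did, the one with the highest mean over the 12 arrays was used. There were 7 genes of the alpha ring, 7 of the constitutive beta ring, 3 of the immunoproteasome, 9 of the base, 8 of the lid, 3 base assembly chaperones and 3 activators. A further 2 probe sets carry both Psme2 and Psme2b and so fell outside the rule.

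RNA came from structures dissected by morphology from kidneys of wild-type Swiss Webster mouse embryos at E14.5 (Theiler stage 22, sex unknown), and was amplified in 2 rounds before hybridization to MG_U74Av2 arrays. The 4 groups held 3 arrays each. Renal vesicles, the first epithelial stage of the nephron, came as pools of 20 structures, and S-shaped bodies, a later stage, came both as pools of 20 and as single structures; collecting duct, the branch that derives from the ureteric bud, was not pooled. Each sample is a biological replicate by the labels, but it is not stated that they come from different embryos, and the p-values therefore reflect the spread among these samples alone, part of which may be technical. As dissected pieces hold several cell types, fewer cells of a type and less RNA per cell cannot be told apart.

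The catalytic core of the proteasome is a barrel of stacked rings: outer alpha rings that gate the entrance and inner beta rings that carry the protease sites. A regulatory particle caps the barrel. Its base holds the ATPases that unfold substrates, and its lid removes ubiquitin. Interferon-induced beta subunits can replace the constitutive catalytic ones and form the immunoproteasome, and alternative activators can take the place of the regulatory particle. Cells with blocked proteasomes raise most subunit genes together through the transcription factor Nfe2l1, which binds antioxidant response elements.

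Signals below are log2 values of the quantile-normalized intensity plus a pseudocount of 7.22, on which a probe set at 0 reads 2.85. Values of different probe sets are not set against each other, and changes of dim genes are understated by the pseudocount. The deposited values were not on a common scale: the brightest array had a median 17.8 times that of the dimmest, and mean intensity was 47.0 ± 24.7 in single S-shaped bodies against 304 ± 51.1 in collecting duct (SD, n = 3 each). Between 48.3% and 59.7% of probe sets were above background on an array, that is, brighter than the size of the array's 5th percentile, which is negative. Of the 40 proteasome genes, 31 to 35 were above background on any 1 array. Psmb8, Psmb9 and Psmd2 were above it on 0 of 12 arrays, Psme3 on 1, Psmd10 on 2, and Psmb3 and Psmb10 on 6 each. The median signal of the proteasome genes lay between 8.05 and 8.60 on all arrays.

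The labelled identities were checked against marker genes. The summed signal of 12 ureteric bud and collecting duct markers was 11600 to 12800 in collecting duct and 232 to 1670 on the other arrays, and that of 10 early nephron markers was 2440 to 3570 in renal vesicles, 822 to 1190 in S-shaped bodies and 175 to 240 in collecting duct. Of the first list, Wnt7b and Ret were above background on 0 arrays of collecting duct. Calb1 was likewise above background on 0 of them. Of the second, Pax2 was above background on 0 arrays of any group. Other members also went against the labels. Pax8, Wnt4 and Six2 of the second list were above background on all 3 arrays of collecting duct. Wnt4, Dll1 and Cdh6 were above it on 0 arrays of pooled S-shaped bodies, and Wnt4 on 0 of single ones. Gata3 and Cdh1 of the first list were above it on all 3 arrays of every group, and Krt7 on all 3 of both kinds of S-shaped body. Krt18 and Epcam of that list were above it on all 3 arrays of renal vesicles.

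**Figure D1:**
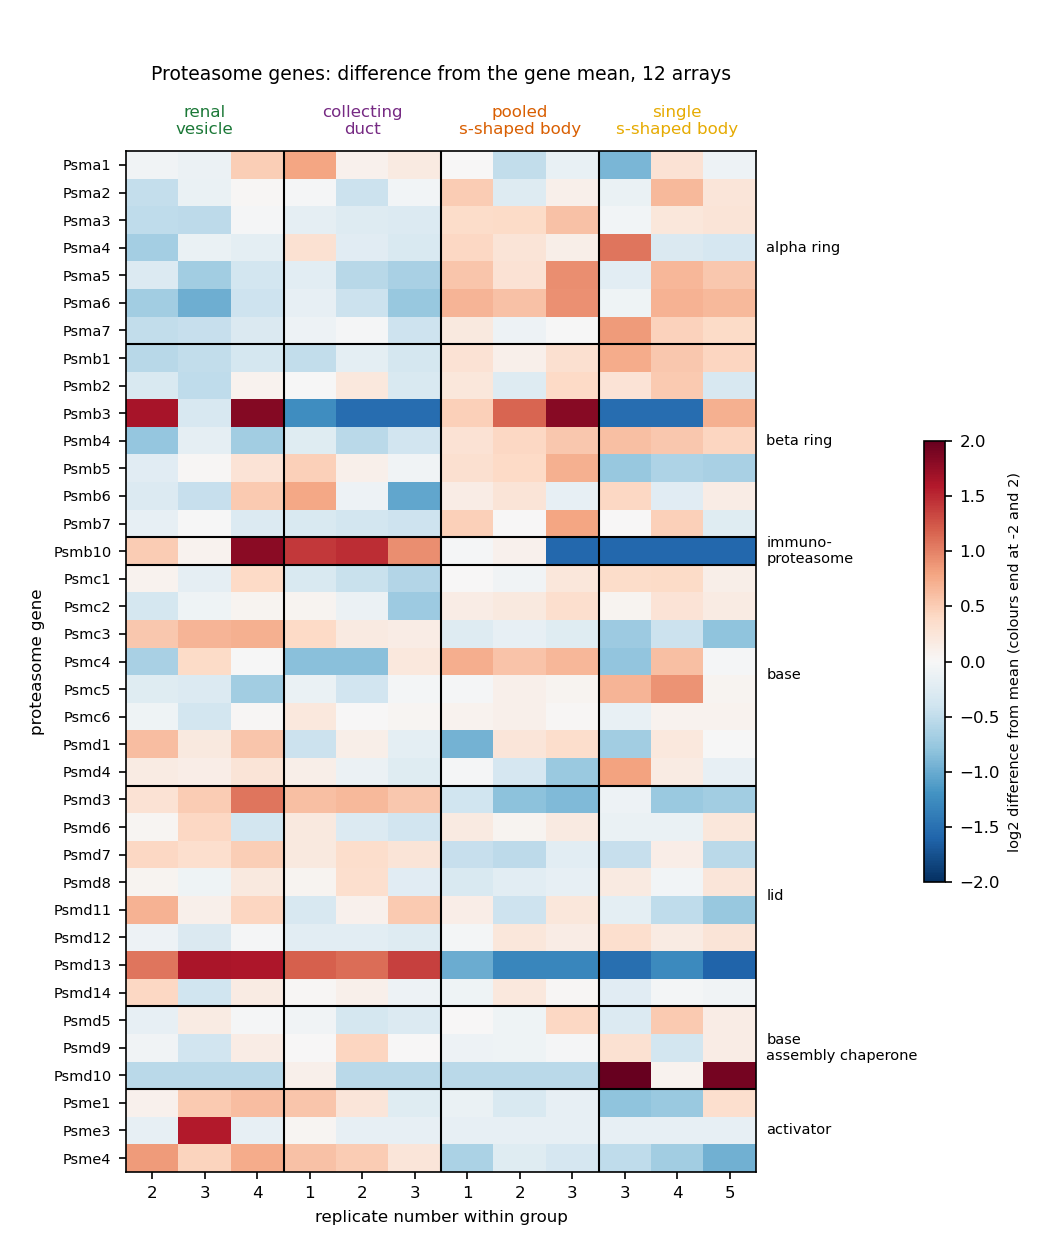
Difference of each array from the gene's mean over the 12 arrays (log2 units, colour scale from -2 to 2) for the 37 proteasome genes above background on at least 1 array, with genes in rows by role and arrays in columns by group. On this normalized scale, alpha and beta ring genes such as Psma6, Psmb1 and Psmb4 are redder in both groups of S-shaped bodies, and Psmd13, Psmd3, Psmc3 and Psme4 are bluer there.

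Renal vesicles and collecting duct differed in few proteasome genes. Of 36 tested, 3 were higher in renal vesicles (Psmb3, Psmc1 and Psmc3) and 0 were lower, where 12.3% of all tested probe sets were called higher and 11.6% lower (limma, adjusted p under 0.05). These counts hold for the probe sets used. By a second probe set, above background on all 12 arrays, Psmb5 was called lower in renal vesicles (-0.73 ± 0.21, adjusted p = 0.0297). The median change was 0.04 over the proteasome genes and -0.02 over all 9316 tested probe sets. The 3 calls were not stable. Each was lost under at least 1 alternative setting. Without renal vesicle replicate 4, or collecting duct replicate 2 or 3, 1 of the 3 was left. For Psmc3 the probe sets disagreed. Another one, above background on all 12 arrays, was higher in renal vesicles by 1.05 ± 0.12 (limma, adjusted p = 0.000118). A further one was not called (0.19 ± 0.23).

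S-shaped bodies differed in more of these genes. By the probe sets used, the calls in the rings were mostly higher and those in the lid mostly lower. Against collecting duct, pooled S-shaped bodies had 10 of 36 genes higher and 6 lower, where 18.2% of all probe sets were called higher and 20.0% lower. Against renal vesicles they had 8 of 36 higher and 5 lower, beside 17.5% and 19.2% of all probe sets. With each array scaled to its 75th percentile instead of quantile normalization, this last split became 4 higher and 6 lower. Single S-shaped bodies had 8 of 37 higher and 6 lower than collecting duct, beside 16.0% and 17.9%, and 6 of 36 higher and 7 lower than renal vesicles, beside 12.5% and 14.6%. The shares over all 40 genes were thus near the background in most comparisons, and what the data show lies in which members were called. The calls include those of Psmb3, Psmb10 and Psmd10, which passed the filter only in fits with a group where they are high. Without collecting duct replicate 1, 2 or 3, the 14 calls of single S-shaped bodies against collecting duct became 9, 8 and 9, and without renal vesicle replicate 2 the 13 calls against renal vesicles became 8.

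The 14 genes of the alpha and beta rings held most of the higher calls. In pooled S-shaped bodies 7 were higher than in collecting duct and 8 were higher than in renal vesicles, with 0 lower in both. Single S-shaped bodies had 6 of 13 higher and 1 lower than collecting duct, and 4 of 14 higher and 0 lower than renal vesicles. The median change of the rings was 0.46, 0.51, 0.41 and 0.46 in this order, beside -0.07, -0.03, -0.07 and -0.03 for all tested probe sets. The 8 lid genes had 3 lower and 1 higher, 3 lower and 0 higher, 2 lower and 1 higher, and 4 lower and 0 higher, with medians of -0.20, -0.36, -0.34 and -0.44. Of the 4 lower in the last of these comparisons, Psmd11 was called higher there by another probe set. In the same order, 18.2%, 17.5%, 16.0% and 12.5% of all tested probe sets were called higher. The shares called lower were 20.0%, 19.2%, 17.9% and 14.6%. The lid counts of single S-shaped bodies against collecting duct lie near these shares. Sem1, a small lid subunit whose symbol lies outside the rule and these counts, was higher in all 4 comparisons. The directions also depend on the scaling. On the deposited scale, where the median of all tested probe sets itself shifted by -0.39, 0.97, -2.49 and -1.03, the sign was reversed for 1, 2, 8 and 5 of the called genes. Other calls were lost there. Among all tested proteasome genes the calls became 2 higher and 9 lower, 24 higher and 1 lower, 0 higher and 35 lower, and 1 higher and 19 lower. Psma3, Psma5, Psmb1, Psmb4 and Psmb7 lost their calls in pooled S-shaped bodies against collecting duct.

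Single and pooled S-shaped bodies differed in 0 of 36 proteasome genes, as limma called 0.247% of all probe sets higher and 0.150% lower in this comparison. At an unadjusted p under 0.05 there were 8 proteasome genes and 1654 probe sets. The median change was -0.04 in both. The median standard error of these changes was 0.23, so that differences of the size seen in most ring genes could be missed here. With each array scaled to its 75th percentile, or with all 12 arrays in 1 fit, 1 gene was called.

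**Figure D2:**
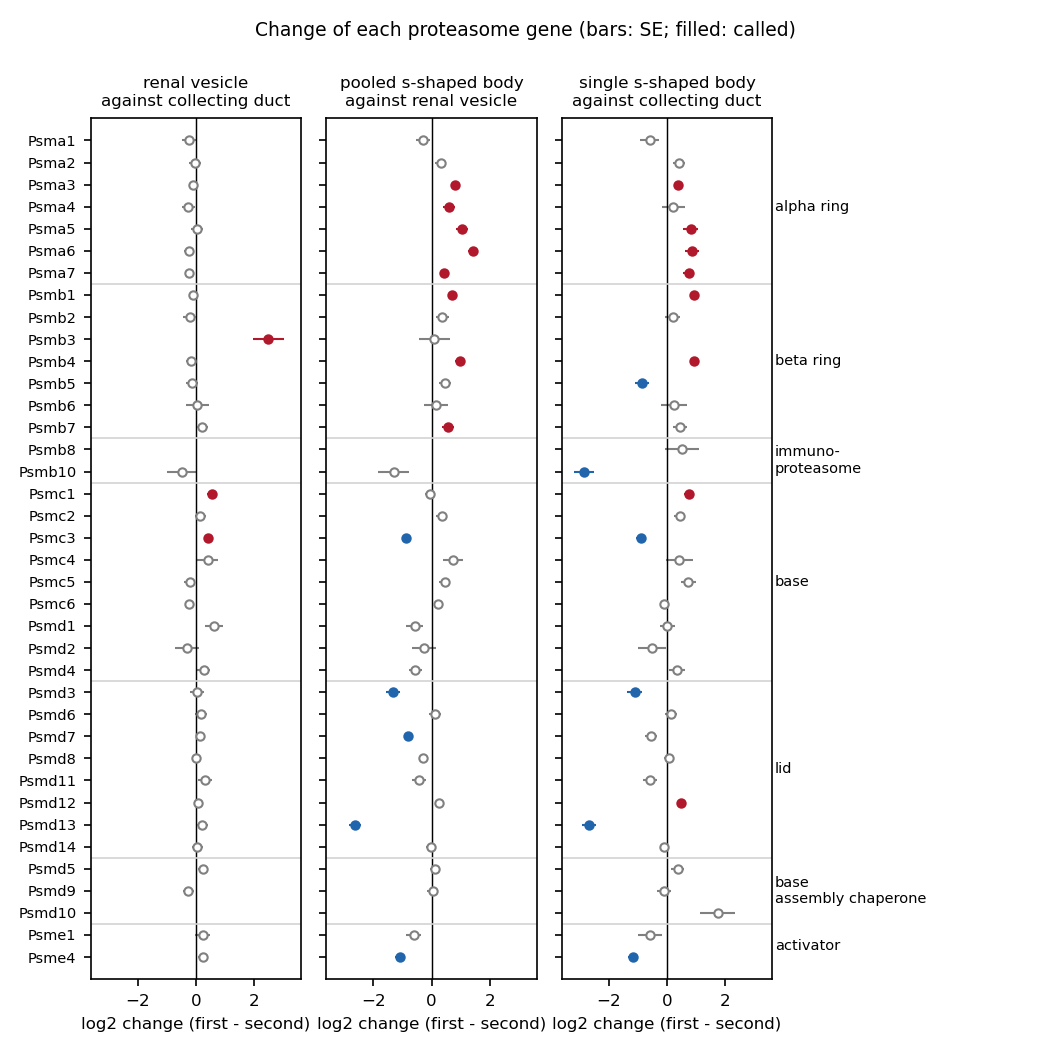
Change of each tested proteasome gene (log2, first group minus second, bars are 1 SE) in 3 of the 6 comparisons, ordered by role; filled points are called higher (red) or lower (blue) at an adjusted p under 0.05. On the normalized scale, called genes of the rings lie to the right of 0 in the comparisons of S-shaped bodies, except Psmb5 in single structures, and Psmd13 lies farthest left but for Psmb10 in single structures.

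In 4 comparisons, S-shaped bodies of 1 kind were set against renal vesicles or collecting duct. Psma6, Psmb1 and Psmb4 were called higher in all 4, and Psmc3, Psmd3, Psmd13 and Psme4 were called lower in all 4. These comparisons share arrays and are not independent of each other. Pooled S-shaped bodies against renal vesicles and single S-shaped bodies against collecting duct have no array in common. Of 35 proteasome genes tested in both, 10 were called in the same direction and 0 in opposite directions. These 10 were 76.9% of the 13 calls of the first and 71.4% of the 14 of the second, where for all probe sets the shares were 47.0% and 50.9%, with 146 in opposite directions. They were Psma3, Psma5, Psma6, Psma7, Psmb1 and Psmb4, all higher, and Psmc3, Psmd3, Psmd13 and Psme4, all lower. The other pairing of groups without shared arrays, pooled S-shaped bodies against collecting duct and single ones against renal vesicles, has the same limit, through renal vesicles. It had 9 in the same direction (3 higher, 6 lower) and 0 opposite. Those were 56.2% and 75% of the calls, beside 42.5% and 59.0% for all probe sets. They include Psmb10, which passed the filter only in fits with renal vesicles or collecting duct, the groups where it is high. Its place among them therefore follows in part from the filter and supports nothing here. On the deposited scale the 6 ring genes were reversed against collecting duct in single S-shaped bodies, and Psmc3 was reversed against renal vesicles in pooled ones. Part of the set was also lost when each array was scaled to its 75th percentile. Psma3 and Psma7 then lost their calls for pooled structures against renal vesicles. Psma5 lost its call for single structures against collecting duct. Other settings also cost some of the 10 genes a call.

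**Figure D3:**
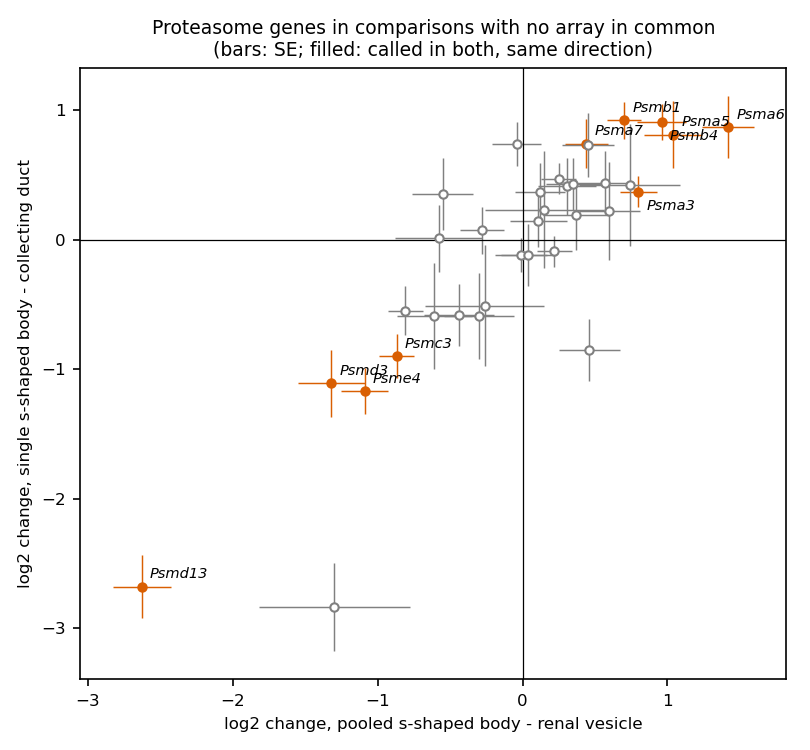
Change of each of the 35 proteasome genes tested in both of 2 comparisons whose groups share no array: pooled S-shaped bodies minus renal vesicles (horizontal, log2) and single S-shaped bodies minus collecting duct (vertical, log2), with bars of 1 SE, on the normalized scale. The fit behind the horizontal values also took its spread in part from the collecting duct arrays. The 10 filled points were called in the same direction in both, 6 higher and 4 lower.

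Sequence just before the start of transcription is shown for 4 of these 10 genes, 2 that were higher (Psma3 and Psma5) and 2 that were lower (Psmd13 and Psme4), as examples of the promoters of genes that moved together in opposite directions. Each stretch runs from 150 bases before to 5 bases after the RefSeq start, 5′ to 3′, on build GRCm38.p6. Capitals mark a match to TGACNNNGC, the core of the antioxidant response element, or to CCAAT, the box bound by the factor NF-Y.
Psma3, chr12:70974473-70974627, plus strand: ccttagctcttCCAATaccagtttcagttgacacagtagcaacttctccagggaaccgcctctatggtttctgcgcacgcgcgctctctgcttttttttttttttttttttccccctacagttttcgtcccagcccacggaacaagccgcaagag
Psma5, chr3:108256776-108256930, plus strand: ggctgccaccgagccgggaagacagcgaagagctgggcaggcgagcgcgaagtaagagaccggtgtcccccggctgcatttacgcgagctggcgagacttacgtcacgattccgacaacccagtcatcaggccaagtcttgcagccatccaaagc
Psmd13, chr7:140882244-140882398, plus strand: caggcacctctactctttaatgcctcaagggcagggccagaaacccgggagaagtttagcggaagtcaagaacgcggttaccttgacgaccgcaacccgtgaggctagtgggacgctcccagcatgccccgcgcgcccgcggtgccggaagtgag
Psme4, chr11:30771625-30771779, plus strand: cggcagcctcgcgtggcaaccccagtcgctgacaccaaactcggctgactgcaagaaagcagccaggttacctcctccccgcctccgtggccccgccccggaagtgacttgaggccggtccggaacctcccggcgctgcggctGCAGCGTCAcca
The stretch of Psma3 holds a CCAAT 139 bases before the start, and that of Psme4 holds TGACNNNGC on the minus strand, beginning 7 bases before the start. Neither motif is in the stretches of Psma5 and Psmd13. Windows of 300 bases (250 before to 50 after the start) were found for 34 of the 40 genes, 36 windows in all. Searched on both strands, TGACNNNGC was in 6 of them (16.7%) and in 12.4% of 32851 windows of all genes, and CCAAT was in 13 (36.1%) against 37.4%. The genes with TGACNNNGC were Psmb5, Psmb6, Psmc6, Psmd9, Psmd12 and Psme4, of which only Psme4 is among the 10. The matches shown do not overlap each other, and a match is a description of these letters, not a binding site.

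The alpha ring forms the gate of the core. Psma6 had the largest range of group means in it. Its signal was 9.16, 8.88 and 9.44 in renal vesicles (replicates 2, 3 and 4), 9.69, 9.42 and 9.09 in collecting duct (1, 2 and 3), 10.54, 10.44 and 10.76 in pooled (1, 2 and 3) and 9.76, 10.55 and 10.50 in single S-shaped bodies (3, 4 and 5). All 6 arrays of S-shaped bodies were above all 6 of the other groups. The change was 1.42 ± 0.18 (SE) against renal vesicles in pooled S-shaped bodies, 2.68-fold, with an adjusted p of 0.000176 (limma). It was 1.18 ± 0.18 against collecting duct (adjusted p = 0.000434). In single S-shaped bodies the changes were 1.11 ± 0.25 (adjusted p = 0.0106) against renal vesicles and 0.87 ± 0.24 (adjusted p = 0.0253) against collecting duct; the latter call was lost without collecting duct replicate 2 or 3 or single S-shaped body replicate 4 or 5.

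Psma5 read 8.32, 7.90 and 8.23 in renal vesicles, 8.38, 8.04 and 7.95 in collecting duct, 9.15, 8.89 and 9.53 in pooled and 8.38, 9.26 and 9.13 in single S-shaped bodies. The pooled arrays were above all arrays of renal vesicles and collecting duct, and single replicate 3 was level with the highest collecting duct array to 2 decimals. The gene was 1.04 ± 0.20 higher in pooled S-shaped bodies than in renal vesicles (adjusted p = 0.00196) and 1.07 ± 0.20 higher than in collecting duct (adjusted p = 0.00146). In single S-shaped bodies the change of 0.81 ± 0.26 against collecting duct passed (adjusted p = 0.0419), though not without collecting duct replicate 1, 2 or 3 or single replicate 4 or 5. That of 0.78 ± 0.27 against renal vesicles did not pass (adjusted p = 0.0589).

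Psma7 was brightest in single S-shaped bodies (9.64, 9.25 and 9.17), compared with 8.98, 8.68 and 8.78 in pooled ones, 8.69, 8.76 and 8.38 in collecting duct and 8.29, 8.32 and 8.50 in renal vesicles. The single arrays did not overlap any other group. Its change was 0.98 ± 0.20 against renal vesicles (adjusted p = 0.00672) and 0.74 ± 0.19 against collecting duct (adjusted p = 0.0167; lost without collecting duct replicate 1 or 3), while that against pooled S-shaped bodies, 0.54 ± 0.18, did not pass (adjusted p = 0.179). In pooled S-shaped bodies the change against renal vesicles was 0.44 ± 0.15 (adjusted p = 0.0414; lost without renal vesicle replicate 2 or 3 or pooled replicate 1 or 3). Psma3 was called higher in pooled S-shaped bodies than in renal vesicles (0.80) and collecting duct (0.68), with 0.37 ± 0.12 in single ones against collecting duct (adjusted p = 0.0475), a call lost without collecting duct replicate 1, 2 or 3 or single replicate 4 or 5. Psma4 was called higher in pooled S-shaped bodies than in renal vesicles (0.60 ± 0.21, adjusted p = 0.0410; lost without renal vesicle replicate 2 or 4 or any 1 pooled array). Psma1 and Psma2 were called in no comparison, with ranges of group means of 0.59 and 0.44. The probe set of Psma3 carries the suffix that marks sequence shared with related transcripts, as do those of Psmb4, Psmb7, Psmc3 and Psmd12. The probe sets used for Psmb5 and Psmd9 carry other suffixes (_s and _r), and that of Psmb5 too can share sequence with other transcripts. Signal of near copies could thus enter these values.

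**Figure D4:**
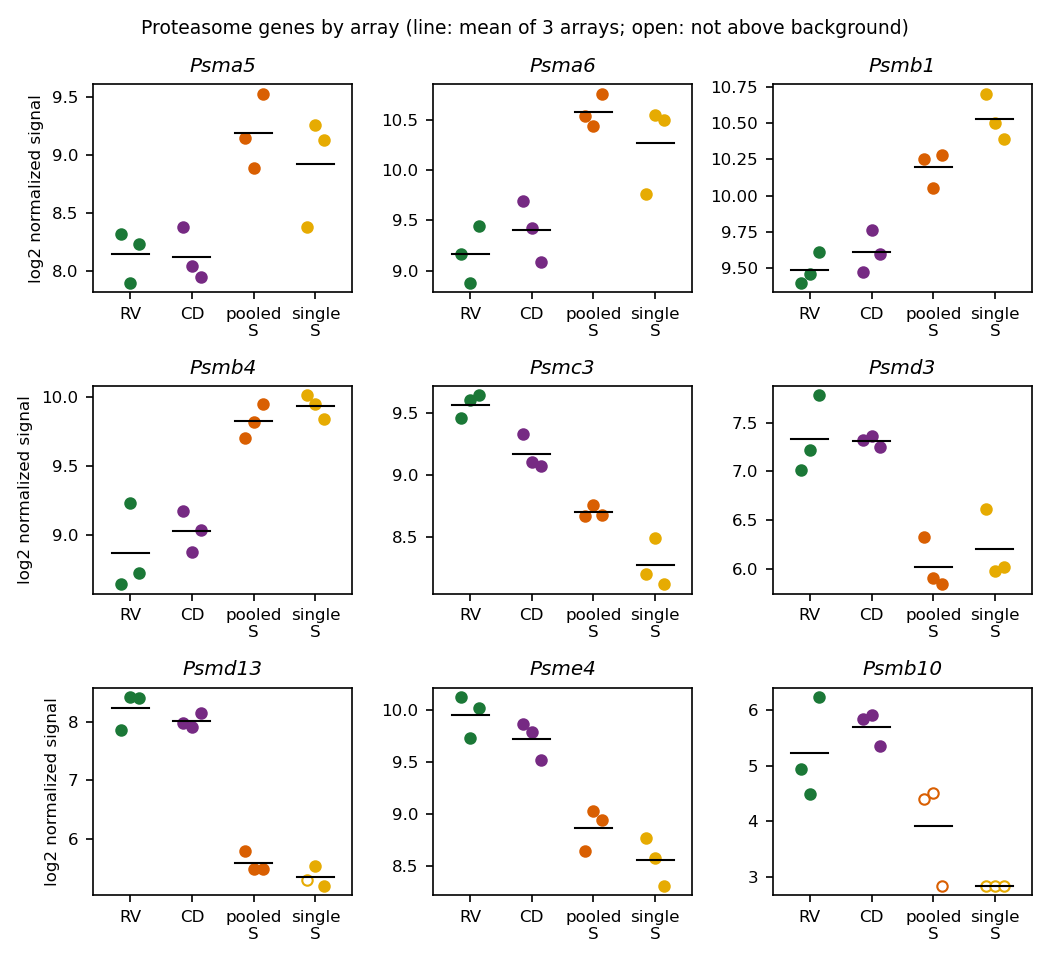
Log2 normalized signal of 9 proteasome genes on each array (points) and the mean of each group of 3 (line), with open points for arrays not above background; RV is renal vesicle, CD collecting duct, and S the S-shaped body. Each panel has its own vertical axis, which does not start at 0, and in the panels of Psmb1 and Psmd13 the arrays of S-shaped bodies do not overlap those of the other groups.

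The constitutive beta ring carries the protease sites on Psmb5, Psmb6 and Psmb7, while Psmb1, Psmb2, Psmb3 and Psmb4 are structural. Psmb1 read 9.40, 9.46 and 9.61 in renal vesicles, 9.47, 9.76 and 9.60 in collecting duct, 10.25, 10.05 and 10.28 in pooled and 10.70, 10.50 and 10.39 in single S-shaped bodies. S-shaped bodies of both kinds were above every array of the other groups. The changes were 0.70 ± 0.12 (adjusted p = 0.00122) and 0.59 ± 0.12 (adjusted p = 0.00329) in pooled S-shaped bodies against renal vesicles and collecting duct, and 1.04 ± 0.15 (adjusted p = 0.00174) and 0.92 ± 0.14 (adjusted p = 0.00173) in single ones. A second bright probe set of Psmb1 changed by 1.11 ± 0.31 against renal vesicles in pooled S-shaped bodies (adjusted p = 0.0168) and by 0.73 ± 0.21 against collecting duct in single ones (adjusted p = 0.0272). It did not pass against collecting duct in pooled ones (0.79 ± 0.31, adjusted p = 0.0677) or against renal vesicles in single ones (1.04 ± 0.36, adjusted p = 0.0590). The remaining one was above background on 0 arrays, and with all 3 averaged the calls against collecting duct were lost.

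Psmb4 read 8.64, 9.23 and 8.72 in renal vesicles, 9.17, 8.87 and 9.03 in collecting duct, 9.70, 9.82 and 9.95 in pooled and 10.01, 9.95 and 9.84 in single S-shaped bodies. Again the S-shaped bodies did not overlap the other groups. It was 0.96 ± 0.17 higher in pooled S-shaped bodies than in renal vesicles (adjusted p = 0.00124) and 1.07 ± 0.20 higher in single ones (adjusted p = 0.00464). When all probe sets of a gene were averaged, the calls of Psmb4 were lost, and its other 2 probe sets were above background on 0 arrays.

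Psmb5, a protease subunit, was lower in single S-shaped bodies than in collecting duct by 1 of its probe sets. The signal of that probe set was 7.60, 7.67 and 7.99 in pooled ones and 6.51, 6.65 and 6.63 in single ones, with 7.05, 7.30 and 7.55 in renal vesicles and 7.75, 7.38 and 7.20 in collecting duct. All single arrays were lower than all others. The change was -1.16 ± 0.21 against pooled structures (adjusted p = 0.0651), which did not pass, and -0.85 ± 0.24 against collecting duct, which passed (adjusted p = 0.0241) except without collecting duct replicate 1 or 2. A second probe set of Psmb5, above background on all 12 arrays, gave 0.20 ± 0.34 and -0.26 ± 0.33 in these comparisons, neither called.

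Psmb3 was dim. It read 6.03, 4.06 and 6.21 in renal vesicles, of which the second was not above background, 3.14, 2.85 and 2.85 in collecting duct, where no array was, 4.86, 5.54 and 6.20 in pooled and 2.85, 2.85 and 5.09 in single S-shaped bodies, of which the last was above background. Collecting duct was thus below the pooled groups, by at least 1.66-fold against renal vesicles (adjusted p = 0.00655) and at least 1.78-fold against pooled S-shaped bodies (adjusted p = 0.00291). These bounds set the mean of the brighter group against the background level of the dimmer one. Psmb3 passed the filter only in fits with renal vesicles or pooled S-shaped bodies, the groups where it is high. Its calls therefore follow in part from the filter. Psmb7 was called higher in pooled S-shaped bodies than in collecting duct (0.78) and renal vesicles (0.57, adjusted p = 0.0496; lost without any 1 renal vesicle array or pooled replicate 1 or 3). Psmb2 and Psmb6 were called in no comparison.

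Of the inducible immunoproteasome subunits, which replace the catalytic ones of the beta ring, Psmb9 was at the floor of 2.85 on all 12 arrays. Psmb8 lay between 2.85 and 4.59 and was not above background on any array. Psmb10 was the one measured. It read 5.83, 5.90 and 5.35 in collecting duct and 4.93, 4.49 and 6.23 in renal vesicles, all above background, and 4.40, 4.51 and 2.85 in pooled and 2.85 on each array of single S-shaped bodies, none above it. It was at least 2.04-fold lower in pooled S-shaped bodies than in collecting duct (adjusted p = 0.0189; lost without pooled replicate 3 or collecting duct replicate 1 or 2). In single S-shaped bodies it was at least 1.57-fold lower than in collecting duct (adjusted p = 0.000509) and at least 1.13-fold lower than in renal vesicles (adjusted p = 0.00968). Against renal vesicles the pooled ones did not pass (adjusted p = 0.0709). Psmb10 passed the filter only in fits with renal vesicles or collecting duct, the groups where it is high, so its lower calls follow in part from the filter.

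Leukocyte markers and interferon-response genes were set beside Psmb10. Of all tested probe sets, 18.2% were called higher and 20.0% lower in pooled S-shaped bodies than in collecting duct, and 16.0% and 17.9% in single ones. Against renal vesicles the shares were 17.5% and 19.2% in pooled and 12.5% and 14.6% in single ones. Renal vesicles had 12.3% higher and 11.6% lower than collecting duct. The counts of these short lists stand beside those shares and are not read as results about a list. The summed signal of 14 leukocyte markers was 403 to 559 in collecting duct, 181 to 232 in renal vesicles, 428 to 487 in pooled and 300 to 545 in single S-shaped bodies, and Ptprc, Cd68, Itgam, Adgre1, Fcer1g and Mrc1 were above background on 0 arrays in every group. Cd14 and Cd52 were above background on all 3 arrays of every group, and Csf1r and Laptm5 on all 3 of both kinds of S-shaped body. Of 6 tested, 1 was higher (Csf1r, 1.08) and 2 were lower (Cd14 and Cd74) in pooled S-shaped bodies than in collecting duct, and of 7 tested, 2 were higher (Csf1r and Coro1a) and 0 lower in single ones. Against renal vesicles 2 were higher and 1 was lower in pooled and 1 was higher in single S-shaped bodies, and renal vesicles had 0 higher and 2 lower than collecting duct. The summed signal of 11 interferon-response genes was 430 to 509 in collecting duct, 349 to 403 in renal vesicles, 392 to 473 in pooled and 341 to 389 in single S-shaped bodies. Of 7 tested, 1 was higher and 2 were lower in pooled S-shaped bodies than in collecting duct, and 1 was higher and 1 lower in single ones. The lower one in single structures was Irf9, part of the complex that carries interferon signals to the nucleus (-1.24, adjusted p = 0.00185), and the higher one was Irf8, a myeloid factor (1.03, adjusted p = 0.0276). Gbp2, an interferon-induced GTPase, was above background on 0 arrays of renal vesicles, and was called lower there than in collecting duct (adjusted p = 0.0247), pooled (adjusted p = 0.0111) and single S-shaped bodies (adjusted p = 0.0281). Whether these levels have a part in the Psmb10 result was not tested.

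Genes of class I antigen presentation, the pathway that uses immunoproteasome products, were called in both directions. Of 7 tested, 2 were higher and 2 lower in pooled S-shaped bodies than in collecting duct, beside 18.2% and 20.0% of all tested probe sets. Against renal vesicles 3 were higher and 0 lower in pooled ones, beside 17.5% and 19.2%. Renal vesicles had 1 higher and 3 lower than collecting duct, beside 12.3% and 11.6%. Single S-shaped bodies had 1 higher and 1 lower than collecting duct, beside 16.0% and 17.9%, and 1 higher and 0 lower than renal vesicles, beside 12.5% and 14.6%. Counts over so few genes are not read as a result about the pathway. B2m, the light chain of class I molecules, was highest in S-shaped bodies: it changed by 2.68 (adjusted p = 1.67e-05) and 1.48 (adjusted p = 0.000495) in pooled ones against renal vesicles and collecting duct, and by 2.62 and 1.42 in single ones. The heavy chain H2-K1 was called higher in pooled S-shaped bodies (1.43 and 1.33) and not in single ones (0.80 and 0.70). Tap1, a subunit of the peptide transporter, was lower than in collecting duct both in pooled S-shaped bodies (-1.10, adjusted p = 0.00461) and in single ones (adjusted p = 0.0243), where it was above background on 0 arrays. Calr, a chaperone of the loading complex, was called higher in renal vesicles than in collecting duct (adjusted p = 0.0380), where it was not above background on any array.

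Endothelial and red cell RNA moved with S-shaped bodies. The summed signal of 9 endothelial markers was 6900 to 8440 in pooled and 6540 to 8730 in single S-shaped bodies, 1500 to 3180 in renal vesicles and 47.5 to 84.2 in collecting duct, where 7 of 9 were above background on 0 arrays. All 9 were called higher in both kinds of S-shaped body than in collecting duct. Of 7 red cell genes the sums were 5260 to 7000 in pooled and 1200 to 4710 in single S-shaped bodies, 124 to 842 in renal vesicles and 151 to 200 in collecting duct. Their part in the proteasome results was not tested. RNA quality differed too: the 3′ to middle ratio of the actin control was 3.66 ± 0.386 in pooled S-shaped bodies, while collecting duct gave 8.24 ± 2.06, renal vesicles 8.59 ± 0.609 and single S-shaped bodies 8.69 ± 1.51. Its 3′ to 5′ ratio was 85.7 ± 8.61 in single S-shaped bodies against 38.3 ± 7.62 in pooled ones, 39.6 ± 3.61 in renal vesicles and 51.2 ± 33.4 in collecting duct (SD, n = 3 each). For GAPDH, pooled S-shaped bodies had the highest 3′ to 5′ ratio (23.9 ± 3.82), with means of 10.3 ± 1.56 for collecting duct, 10.8 ± 2.02 for single S-shaped bodies and 10.9 ± 3.22 for renal vesicles. The part of RNA quality in the proteasome results was not tested.

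The base unfolds substrates with the ATPases Psmc1 to Psmc6, and its other subunits here are Psmd1, Psmd2 and Psmd4. Psmc3 was the base gene that was lower in S-shaped bodies. It read 9.46, 9.60 and 9.64 in renal vesicles, 9.33, 9.10 and 9.07 in collecting duct, 8.67, 8.76 and 8.68 in pooled and 8.20, 8.49 and 8.12 in single S-shaped bodies. The groups formed 4 levels that did not overlap. It fell by 0.87 ± 0.12 and 1.30 ± 0.18 against renal vesicles in pooled and single S-shaped bodies (adjusted p = 0.000322 and 0.00143), and by 0.47 ± 0.12 and 0.90 ± 0.17 against collecting duct (adjusted p = 0.0117 and 0.00483; the first lost without collecting duct replicate 1). Both other probe sets of Psmc3 were also lower against renal vesicles in both kinds of S-shaped body (-1.19 and -1.01 pooled, -1.01 and -1.71 single). Against collecting duct 1 of these 2 was lower (-0.82 pooled, -1.52 single) and the other was not called (-0.14 and 0.04).

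Psmc4 was dim, at 4.82, 5.85 and 5.45 in renal vesicles, 4.63, 4.63 and 5.67 in collecting duct, 6.19, 6.03 and 6.12 in pooled and 4.67, 6.06 and 5.44 in single S-shaped bodies. Pooled S-shaped bodies were above the renal vesicle and collecting duct arrays, and the change of 1.14 ± 0.35 against collecting duct passed (adjusted p = 0.0232), though not when pooled replicate 1 or 3 or collecting duct replicate 1 or 2 was left out. Psmc5 read 7.52, 7.49 and 7.08 in renal vesicles, 7.63, 7.39 and 7.73 in collecting duct, 7.74, 7.87 and 7.82 in pooled and 8.45, 8.67 and 7.83 in single S-shaped bodies. All arrays of S-shaped bodies were above all others, but only the change of single ones against renal vesicles passed (0.95 ± 0.28, adjusted p = 0.0330), and it was lost without any 1 of renal vesicle replicates 2, 3 and 4 or of single replicates 3 and 4. A second, dim probe set of Psmc5 was above background on 2 of the 12 arrays, neither of them a single S-shaped body. It was called lower in single S-shaped bodies than in collecting duct (adjusted p = 0.0122), a change with no size at this signal. Psmc1 was lowest in collecting duct, with renal vesicles 0.54, pooled 0.50 and single S-shaped bodies 0.74 higher (adjusted p = 0.0399, 0.0373 and 0.00984). Its first call was lost without renal vesicle replicate 2 or 4 or any 1 collecting duct array, and its second without any 1 pooled array or collecting duct replicate 2 or 3. Psmc2, Psmc6, Psmd1 and Psmd4 were called in no comparison, and Psmd2 was not above background anywhere.

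The lid removes ubiquitin through Psmd14, held by its partner Psmd7, on a scaffold to which Psmd3, Psmd6, Psmd8, Psmd11, Psmd12 and Psmd13 contribute. Psmd13 had the widest range of group means among the genes that could be tested in every comparison. Its signal was 7.86, 8.43 and 8.41 in renal vesicles, 7.99, 7.92 and 8.16 in collecting duct, 5.80, 5.49 and 5.49 in pooled and 5.29, 5.53 and 5.20 in single S-shaped bodies, of which the first was not above background. More than 2 log2 units separated the lowest array of the first pair of groups from the highest of the second. In pooled S-shaped bodies it was 6.21-fold lower than in renal vesicles (-2.63 ± 0.20, adjusted p = 7.98e-06) and 5.37-fold lower than in collecting duct (-2.43 ± 0.20, adjusted p = 5.64e-06). In single ones it was 7.43-fold (-2.89 ± 0.29, adjusted p = 0.000395) and 6.43-fold lower (-2.68 ± 0.24, adjusted p = 0.000109). These calls held under all alternatives run, the deposited scale included. Renal vesicles and collecting duct differed by 0.21 ± 0.20, with a 95% interval of -0.23 to 0.65.

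Psmd3 read 7.01, 7.22 and 7.78 in renal vesicles, 7.32, 7.36 and 7.25 in collecting duct, 6.32, 5.90 and 5.84 in pooled and 6.61, 5.97 and 6.02 in single S-shaped bodies. All 6 arrays of S-shaped bodies were below the others. It fell by 1.32 ± 0.23 and 1.29 ± 0.23 in pooled ones against renal vesicles and collecting duct (adjusted p = 0.00118 and 0.00112). In single ones it fell by 1.14 ± 0.33 and 1.11 ± 0.26 (adjusted p = 0.0306 and 0.0117), calls lost without any 1 renal vesicle array or single replicate 4 or 5 in the first, and without collecting duct replicate 1 or 2 in the second. Psmd7 was lower in pooled S-shaped bodies than in both groups (-0.81 and -0.66, adjusted p = 0.000334 and 0.00105) and in single ones than in renal vesicles (-0.71, adjusted p = 0.0273; lost without any 1 renal vesicle array or single replicate 3 or 5). On the deposited scale the pooled change against renal vesicles was reversed in sign for Psmd7, and that of Psmd3 was no longer called.

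Psmd11 depended on the probe set. The one used read 10.88, 10.29 and 10.61 in renal vesicles, 9.86, 10.26 and 10.71 in collecting duct, 10.32, 9.76 and 10.40 in pooled and 9.99, 9.67 and 9.42 in single S-shaped bodies, which were lower than renal vesicles (-0.90 ± 0.21, adjusted p = 0.0120; lost without renal vesicle replicate 2). Another probe set of Psmd11, above background on 12 arrays, was higher in single S-shaped bodies than in renal vesicles (1.07 ± 0.34, adjusted p = 0.0459) and collecting duct (1.41 ± 0.30, adjusted p = 0.00787), and higher in pooled ones (0.90 and 1.24, adjusted p = 0.0283 and 0.00544). A direction for this gene cannot be given. Psmd12 was higher than in collecting duct in pooled (0.34) and single S-shaped bodies (0.47), both lost without any 1 collecting duct array and the first also without pooled replicate 2 or 3. Psmd6, Psmd8 and Psmd14 were called in no comparison, the last with a range of group means of 0.17.

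The base assembly chaperones Psmd5, Psmd9 and Psmd10 bind the ATPases before the particle is complete. Psmd5 lay between 8.36 and 9.24 and Psmd9 between 7.33 and 8.14 over all arrays, with 0 calls. Psmd10 was at or near the floor of 2.85 except in single S-shaped bodies, where it read 5.64, 3.47 and 5.30 and 2 of 3 arrays were above background. The gene passed the filter only in fits with single S-shaped bodies, the group where it is high, so its place among the higher calls of single S-shaped bodies against renal vesicles follows in part from the filter and supports nothing here. That call was lost without any 1 renal vesicle array or single replicate 3 or 5.

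Among the activators, Psme4, which caps the core without ATP, was lower in S-shaped bodies. Its signal was 10.13, 9.73 and 10.02 in renal vesicles, 9.87, 9.79 and 9.52 in collecting duct, 8.64, 9.03 and 8.94 in pooled and 8.77, 8.58 and 8.31 in single S-shaped bodies. The arrays of S-shaped bodies were all below the rest. It fell by 1.09 ± 0.16 and 0.86 ± 0.16 in pooled ones against renal vesicles and collecting duct (adjusted p = 0.000351 and 0.00134), and by 1.40 ± 0.19 and 1.17 ± 0.18 in single ones (adjusted p = 0.00131 and 0.00148). The pooled call against renal vesicles was lost on the deposited scale.

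Psme1, part of the interferon-induced activator, read 5.78, 6.22 and 6.31 in renal vesicles, 6.25, 5.93 and 5.45 in collecting duct, 5.56, 5.39 and 5.52 in pooled and 4.89, 4.95 and 6.02 in single S-shaped bodies, and was called in no comparison. Psme3, the nuclear activator, was above background on 1 array, renal vesicle replicate 3, at 4.60, and between 2.85 and 3.06 on the other 11.

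Other genes of the pathway were read from lists drawn up with earlier results of these data known. The lists are short. Their counts stand beside the shares of all tested probe sets called in each comparison, given above, and are not read as results about a list. Sem1, a small subunit of the lid whose symbol lies outside the rule, rose in S-shaped bodies: 1.22 and 1.18 in pooled ones against renal vesicles and collecting duct (adjusted p = 0.000467 and 0.000464), and 1.65 and 1.60 in single ones (adjusted p = 0.00124 and 0.000653). Ecpas, an adaptor that binds the proteasome, fell by 1.38 and 1.74 in pooled ones (adjusted p = 0.00187 and 0.000351) and by 1.38 and 1.74 in single ones (adjusted p = 0.0270 and 0.00724). The list of proteasome-bound ubiquitin enzymes also holds Ecpas, which is not an enzyme of ubiquitin. Of the 3 genes measured in it, Ecpas and the deubiquitinase Usp14 were lower than in renal vesicles in both kinds (Usp14 by -0.64 and -0.94). The deubiquitinase Uchl5 was not called. Of the 5 genes of core assembly measured, 1, 1, 2 and 1 were higher in S-shaped bodies in the pooled comparisons with collecting duct and renal vesicles and in the single ones, and 0 were lower. The assembly chaperone Psmg3 was called in single ones, at 2.03 against collecting duct (adjusted p = 0.00832) and 1.66 against renal vesicles (adjusted p = 0.0170), while its change between single and pooled ones, 1.59 ± 0.50, did not pass (adjusted p = 0.168).

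Of 6 receptors, shuttles and unfoldase genes measured, 2 were higher and 1 lower in renal vesicles than in collecting duct. In pooled S-shaped bodies 3 were higher and 2 lower than in collecting duct, and 2 were higher and 2 lower than in renal vesicles. Ufd1, a cofactor of the unfoldase Vcp, is among the higher calls of renal vesicles (adjusted p = 0.05 after rounding) and pooled S-shaped bodies (adjusted p = 0.0165) against collecting duct. As it was above background on 0 arrays of collecting duct and of either kind of S-shaped body, no size is given for it. The shuttle Ubqln2 was lower than in collecting duct in pooled (-1.29) and single S-shaped bodies (-1.14), and Ubqln1 was lower in pooled ones than in renal vesicles (-1.38, adjusted p = 0.000755). Single S-shaped bodies had 1 of 5 higher and 1 lower than collecting duct, and 1 of 6 higher and 0 lower than renal vesicles. Of the 5 regulators of proteasome genes, Nfe2l2, the oxidative stress factor, was the one called. It fell by 2.46 in renal vesicles (adjusted p = 3.23e-06), 1.39 in pooled (adjusted p = 0.000116) and 1.37 in single S-shaped bodies (adjusted p = 0.000732) against collecting duct, and it rose by 1.07 and 1.10 in pooled and single S-shaped bodies against renal vesicles. Nfe2l1, Nfya, Nfyb and Nfyc were called in no comparison.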

How the data were processed

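RNA of 12 samples was extracted with TRIzol, amplified in 2 rounds and put on MG_U74Av2 arrays, as the labels' protocols state. The authors deposited 1 column of linear intensity values per array, with values below 0, for 12422 probe sets and 66 controls. GCOS is named in the submitters' processing notes; neither the summary method nor any scaling is named there (not given in the sources used here).

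From these intensities the 12 arrays were quantile normalized without controls, values under 0 were set to 0, 7.22 (25% of the median) was added before taking log2. A fit left out probe sets whose mean was below the 25th percentile (9316 tested). limma 3.58.1 in R 4.3.3 (eBayes with trend, two-sided tests, Benjamini-Hochberg over all tested probe sets) gave the changes; a call needs an adjusted p under 0.05. The 3 groups other than single S-shaped bodies shared a fit of 9 arrays, and each comparison with single ones used 6. The fits were also run on simulated arrays with normal noise and known changes. Those had no scale difference between arrays, floor or shared array effect, so the run checks the code and not the calls reported here. Promoters were searched in Python 3.11.15. The annotation gave 10833 probe sets 1 symbol, 396 several and 1193 none. No 2 arrays were identical (0 pairs). The number of arrays limits the precision.

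The genes, lists, promoters and motifs were chosen with earlier results of these data known. Every proteasome gene is named. Array values are given for immunoproteasome, activator and chaperone genes, for the 3 genes with the widest range of group means in each ring, base and lid, and for genes called with a change of at least 1 log2 unit. Pathway list genes are named where called at that size, and some others were named after their values were seen. Same-numbered samples did not deviate together (11 pairs, correlation -0.09 to 0.05), so the numbers were not taken as pairs.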

Additional observations from a re-analysis of the deposited data

How the results depend on the processing

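Counts of called proteasome genes were recomputed under other pseudocounts, scalings, filters and fits. On the deposited scale they became 35 (renal vesicles against collecting duct), 25 (pooled S-shaped bodies against renal vesicles), 35 (single against pooled), 35 (single against collecting duct) and 20 (single against renal vesicles), as all probe sets shifted; Psma6, Psmb1 and Psmb4 then changed by -0.43, -0.46 and -0.49 in single S-shaped bodies against renal vesicles, the reverse of the reported direction. Pooled S-shaped bodies against collecting duct had 2 higher and 9 lower on that scale. Without the mean-variance trend, 1 gene was called between renal vesicles and collecting duct and 9 between single S-shaped bodies and collecting duct. Without the filter, single S-shaped bodies against renal vesicles gave 8. Scaling to the 75th percentile, or all 12 arrays in 1 fit, gave 1 call between single and pooled. With the replicate number as a replicate block, 0 were called between renal vesicles and collecting duct and 6 between single S-shaped bodies and renal vesicles; the counts of pooled S-shaped bodies stayed within 1.5 times at 16 and 10. No block could be fitted for single against pooled or collecting duct, which share 1 number. More probe sets enter the adjustment without the filter; the cause of the other moves was not tested.

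Leaving out 1 array at a time gave 1 to 2 calls for renal vesicles against collecting duct, 12 to 14 and 10 to 12 for pooled S-shaped bodies against collecting duct and renal vesicles, 0 to 0 for single against pooled, and 8 to 15 and 8 to 12 for single against collecting duct and renal vesicles. Apart from the deposited scale, 8 of 16, 8 of 13, 4 of 14 and 4 of 13 calls in the comparisons of pooled S-shaped bodies with collecting duct and renal vesicles and of single ones with both held under every alternative, among them Psmd13 and Psme4 each time. The median change of the proteasome genes was within the replicate spread in 101 of 109 recomputed values. Signal over background limits Psmb3, Psmb8, Psmb9, Psmb10, Psmc4, Psmd2, Psmd10 and Psme3.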
